A study of Mus musculus with 20 samples.

Results

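Remaining MRU were the mammary repopulating units that the labels describe as not CD200 positive and not CD200R1 positive. Mammary repopulating units (MRU) are the cells of medium CD24 and high CD49f, a gate named for the ability of its cells to regrow a mammary gland after transplantation. Remaining MRU made up 5 of the 20 libraries and were chosen by their labels alone. They were set against 3 populations of 5 libraries each. CD200+CD200R1+ MRU lay inside the MRU gate and were positive for both proteins. CD200+ non-MRU lay outside the MRU gate and were CD200 positive and CD200R1 negative. CD200R1+ non-MRU lay outside the MRU gate and were CD200 negative and CD200R1 positive. All 20 libraries came from virgin FVB/N females of 6 to 8 weeks, after depletion of lineage-positive cells from the fourth inguinal glands. Each of 5 individual mice, numbered 2 to 6, gave 1 library of 1000 sorted cells to every population. The description of remaining MRU and their count headers, which end in none, name cells that lacked each protein. Their titles can also be read as cells that only fell short of carrying both together. The CD200R1+ non-MRU library of mouse 4 had received 10% of its cells from mouse 3.

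The mammary gland is a branched epithelium of luminal cells and contractile basal cells, embedded in fat and fed by a dense bed of capillaries. Endothelial cells line these vessels, sense vascular endothelial growth factor (VEGF) and angiopoietins through receptor tyrosine kinases, and hold together by junction proteins of their own. Capillaries of fat also take up fatty acids through carriers, and pericytes wrap the capillary wall from outside. The labels call all 4 populations epithelial cells, but the genes with every remaining MRU library above the 15 others included genes of capillaries and pericytes.

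The promoters of Rbp7, Flt1, Adgrl4 and Rgs5 are shown because these genes carried the separation of remaining MRU described below. Rbp7 encodes a retinol-binding protein of capillaries, Flt1 a VEGF receptor, Adgrl4 an adhesion G-protein-coupled receptor of endothelium and Rgs5 a G-protein regulator of pericytes. Each sequence holds the 250 bases before the RefSeq start of the gene, read 5′ to 3′ on its own strand, from RefSeq with build GRCm38.p6. Capitals mark matches to any of 5 short motifs searched on both strands, which were GGAAGT for the ETS factors, AGATAA for the GATA factors, GTGGGAA for the Notch effector RBPJ, ACAAAG for the SOX factors and AGGTCA for nuclear receptors such as PPAR. The Rbp7 window is chr4:149454969-149455218 on the minus strand, the Flt1 window chr5:147726012-147726261 on the minus strand, the Adgrl4 window chr3:151437632-151437881 on the plus strand and the Rgs5 window chr1:169655251-169655500 on the plus strand.
Rbp7: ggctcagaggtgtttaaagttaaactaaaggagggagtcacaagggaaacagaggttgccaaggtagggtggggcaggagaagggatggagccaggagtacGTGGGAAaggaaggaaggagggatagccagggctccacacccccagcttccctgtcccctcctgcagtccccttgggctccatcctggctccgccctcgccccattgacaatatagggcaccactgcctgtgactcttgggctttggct
Flt1: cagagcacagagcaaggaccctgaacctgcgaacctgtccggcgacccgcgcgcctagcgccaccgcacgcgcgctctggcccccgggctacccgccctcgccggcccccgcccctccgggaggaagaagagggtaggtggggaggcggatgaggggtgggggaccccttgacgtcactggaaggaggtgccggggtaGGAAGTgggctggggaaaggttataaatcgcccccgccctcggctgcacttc
Adgrl4: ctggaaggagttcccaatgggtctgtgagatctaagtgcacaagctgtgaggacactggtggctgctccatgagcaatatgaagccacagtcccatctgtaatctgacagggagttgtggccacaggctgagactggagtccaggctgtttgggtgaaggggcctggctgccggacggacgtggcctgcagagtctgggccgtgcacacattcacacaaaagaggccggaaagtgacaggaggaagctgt
Rgs5: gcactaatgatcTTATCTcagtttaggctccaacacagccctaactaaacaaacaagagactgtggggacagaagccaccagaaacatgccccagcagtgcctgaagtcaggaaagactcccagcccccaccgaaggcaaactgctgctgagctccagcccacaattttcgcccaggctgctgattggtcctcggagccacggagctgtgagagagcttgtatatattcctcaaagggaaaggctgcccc
The Rbp7 window held 1 match to the RBPJ letters, 149 bases before the start. The Flt1 window held 1 match to the ETS letters, 52 bases before the start. The Rgs5 window held the GATA letters on the opposite strand, 238 bases before the start, and the Adgrl4 window held none of the 5 motifs.

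Motif letters of this length are common, so their shares are a description. The table held 456 promoter windows for 319 of the 464 genes in which every remaining MRU library lay above all others. Of these windows, 17.8% held the ETS letters, against 19.7% of all 32851 windows. The GATA letters stood in 7.89% against 9.99%, the RBPJ letters in 3.73% against 5.42%, the SOX letters in 14% against 16.5% and AGGTCA in 13.6% against 14%. Windows of the tested genes held the 5 motifs in 22.4%, 6.31%, 5.52%, 12.8% and 11.2%, in the same order. The shares over the 456 windows were thus below those of all windows for each motif, and above those of the tested genes for GATA, SOX and AGGTCA. They do not cover those of the 464 genes that had no window.

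Library totals ran from 11317655 to 12695016 counts in remaining MRU and from 10853587 to 13862963 over all 20 libraries, and 3 counts in a single library equalled 0.216 to 0.276 CPM, a gene's count relative to the library total. The mitochondrial genome took 3.19 to 4.12% of counts in remaining MRU, 3.88 to 4.92% in CD200+CD200R1+ MRU, 2.55 to 2.93% in CD200+ non-MRU and 1.96 to 3.56% in CD200R1+ non-MRU. Of 46603 genes listed, 17236 had enough counts to be tested. Levels below are CPM after TMM scaling, a method that equalises libraries on the bulk of their genes, and a level says nothing of gene length. Differences are log2 fold changes of remaining MRU over the named population, from an edgeR quasi-likelihood model with the mouse as a block. A gene passed at a Benjamini-Hochberg adjusted p below 0.05 over all tested genes. Many named genes were chosen by their values in these data, so their p-values describe them and are no separate support.

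Flt1, which binds VEGF on endothelial cells and limits its action, separated remaining MRU from all other libraries. It stood at 277, 334, 314, 306 and 273 CPM in the remaining MRU of mice 2 to 6. The 15 other libraries had a lowest value of 0.932, a median of 2.10 and a highest of 10.7 CPM. No other library came near any remaining MRU library, and within each mouse the level was 28.5 to 132 times that of CD200+CD200R1+ MRU.

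Rbp7 showed the widest gap of all tested genes by the ratio defined further below, which adds 1 to each level. It stood at 623, 583, 504, 669 and 687 CPM in remaining MRU of mice 2 to 6. The other libraries ran from 0.0932 over a median of 1.25 to 15.96 CPM. The highest of these came from CD200+CD200R1+ MRU of mouse 5, and CD200R1+ non-MRU stayed below 1 CPM in every mouse. Rgs5 stood at 499, 497.5, 498, 546 and 382 CPM in remaining MRU, against 0.407 to 49.7 CPM in the others with a median of 17.3 in the others. The mouse 6 library was the lowest of remaining MRU and still lay well above every other library.

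Fabp4, a fatty acid carrier of capillaries and adipocytes, was present outside remaining MRU as well. It reached 3952, 5472, 4002, 5683 and 4724 CPM in remaining MRU of mice 2 to 6. CD200+CD200R1+ MRU had 146 to 355 CPM, CD200+ non-MRU 53.8 to 153 CPM and CD200R1+ non-MRU 496 to 1737 CPM. The groups did not overlap, but CD200R1+ non-MRU came closer for Fabp4 than for the other 3 genes. In bulk libraries, more cells of a type and more RNA per cell cannot be told apart.

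**Figure D1:**
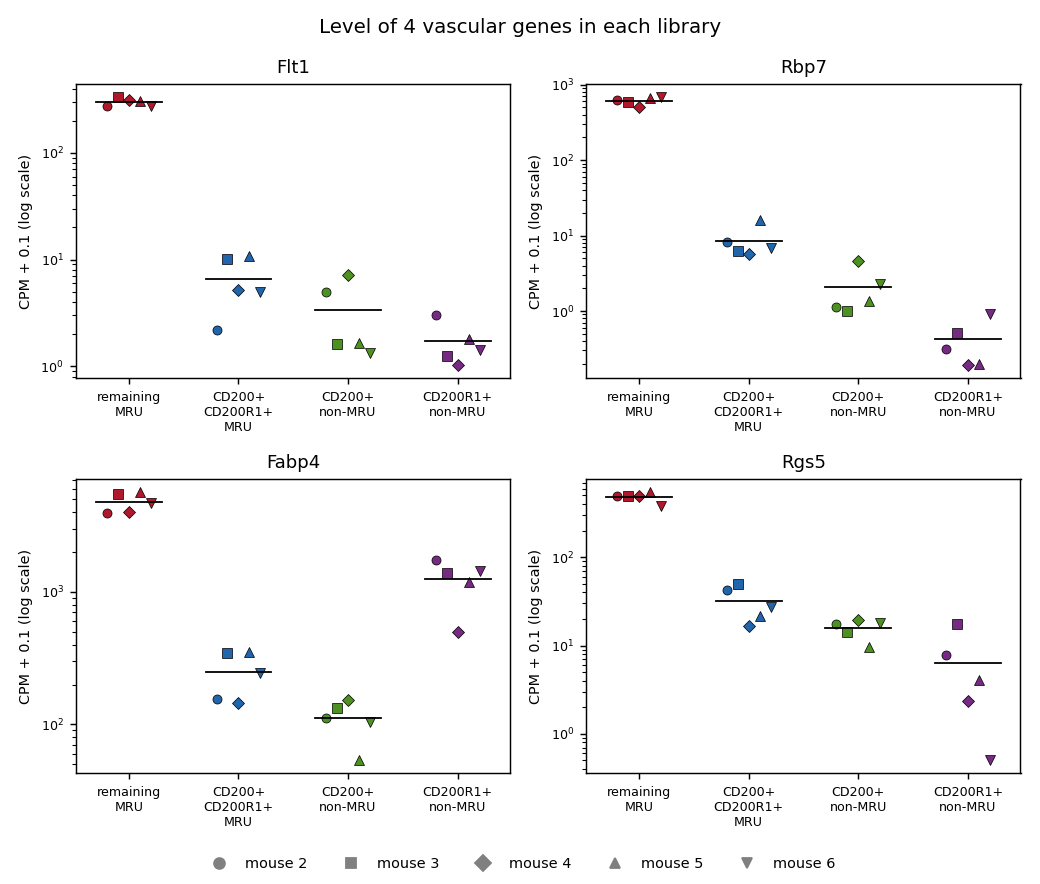
Level of Flt1, Rbp7, Fabp4 and Rgs5 in CPM + 0.1 on a log axis, with 1 point per library, 1 symbol per mouse and a line at the mean of each population (n = 5). Remaining MRU, at the left of each panel, lie above all 15 other libraries for each gene, and CD200R1+ non-MRU are the nearest population for Fabp4.

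The label was checked against the sort markers and the epithelial lists. Itga6, which encodes CD49f, stood at 732 to 1016 CPM in remaining MRU, against 1040 to 1376 CPM in CD200+CD200R1+ MRU, 79.2 CPM on average for CD200+ non-MRU and 9.63 CPM for CD200R1+ non-MRU. Cd24a stood at 595 to 801 CPM in remaining MRU and 406 to 851 CPM in CD200+CD200R1+ MRU. Cd200 stood at 172, 196, 203, 225 and 196 CPM in remaining MRU and was lower in CD200+CD200R1+ MRU, at 103, 110.3, 76.8, 91.1 and 127 CPM, with a log2 difference of 0.97 (SE 0.20, adjusted p = 0.00329). These libraries did not overlap, although CD200+CD200R1+ MRU were sorted as positive for the protein and remaining MRU are described as not CD200 positive. Cd200r1 was low, at 0 to 4.14 CPM in remaining MRU and 1.65 to 4.91 CPM in CD200+CD200R1+ MRU, with no call (adjusted p = 0.601). It averaged 4.05 CPM in CD200+ non-MRU, sorted as CD200R1 negative, and 0.864 CPM in CD200R1+ non-MRU, sorted as positive. Neither passed against remaining MRU (adjusted p = 0.172 and 0.505).

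Basal and myoepithelial genes were present in remaining MRU, with sums below those of CD200+CD200R1+ MRU in each of the 5 mice. The basal list of 10 genes summed to 3440 to 6340 CPM in remaining MRU, against 4450 to 8020 in CD200+CD200R1+ MRU, 145 to 419 in CD200+ non-MRU and 561 to 728 in CD200R1+ non-MRU. By mouse, in the order 2 to 6, it was 6340, 4450, 4090, 3440 and 3920 CPM in remaining MRU, against 8020, 6320, 5480, 4450 and 5440 CPM in CD200+CD200R1+ MRU. Between the MRU populations, 1 of the 10 genes was called lower, where 2.49% of all tested genes were, and the median log2 difference was -0.44. That gene was Trp63, the p63 factor of basal cells, with 59.7, 80.9, 79.3, 81.3 and 75.3 CPM in remaining MRU against 113 to 141 CPM in CD200+CD200R1+ MRU (log2 difference -0.76, SE 0.22, adjusted p = 0.0358). The basal keratin Krt5 had 322 to 509 CPM in remaining MRU and 484 to 661 CPM in CD200+CD200R1+ MRU, and did not pass (adjusted p = 0.391). The call on Trp63 was lost without each of 8 libraries in turn, which were mice 2, 4, 5 and 6 of remaining MRU and mice 2, 3, 5 and 6 of CD200+CD200R1+ MRU, with adjusted p up to 0.116. The count of lower basal genes ran from 0 to 3 over the alternatives.

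The myoepithelial list of 8 contractile genes summed to 19500, 15500, 14200, 12600 and 13900 CPM in remaining MRU of mice 2 to 6, against 26000, 23100, 17800, 15000 and 21900 CPM in CD200+CD200R1+ MRU of the same mice. These sums were not tested. Of all tested genes, 2.49% were called lower within the MRU gate. Mylk, the myosin light chain kinase, was the 1 of 8 called lower, at 827, 613, 601, 709 and 565 CPM in remaining MRU against 893 to 1318 CPM in CD200+CD200R1+ MRU (log2 difference -0.77, SE 0.18, adjusted p = 0.0085). Its libraries did not overlap. Tagln, the actin-binding protein transgelin, stood at 4224, 3575, 3648, 2855 and 3636 CPM in remaining MRU, against 5655, 5438, 4833, 3698 and 5889 CPM in CD200+CD200R1+ MRU of the same mice. It was lower within each of the 5 mice and did not pass (log2 difference -0.49, SE 0.29, adjusted p = 0.361). The count of lower myoepithelial genes was 4 with voom, 3 with no filter on low counts and 2 with DESeq2 size factors or library size alone. It was also 2 without remaining MRU of mouse 2, CD200+ non-MRU of mouse 2, 3, 4 or 6, or CD200R1+ non-MRU of mouse 4 or 6. Luminal genes showed no call between the MRU populations, with 0 of 15 genes in either direction and a median of -0.07, although 2 were called lower without remaining MRU of mouse 6. All 15 were lower than in CD200+ non-MRU, where 21.5% of tested genes were. Against CD200R1+ non-MRU 12 were higher and 1 lower, where 23.8% and 22.3% of tested genes were, with a median of 5.09. Against the mean of the 3 populations 8 were higher and 2 lower, where 18.2% and 12.3% of tested genes were. It was 1 lower without remaining MRU of mouse 2, 3 or 5.

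The endothelial sums did not overlap between the MRU populations. The 21 endothelial receptor, junction and surface genes summed to 3200 to 4590 CPM in remaining MRU, against 123 to 424 CPM in CD200+CD200R1+ MRU, 305 to 485 in CD200+ non-MRU and 278 to 401 in CD200R1+ non-MRU. Remaining MRU held epithelial and endothelial transcripts in the same libraries of 1000 cells. The deposited values hold no single cells, so a mixture of cells and joint expression within a cell cannot be told apart.

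**Figure D2:**
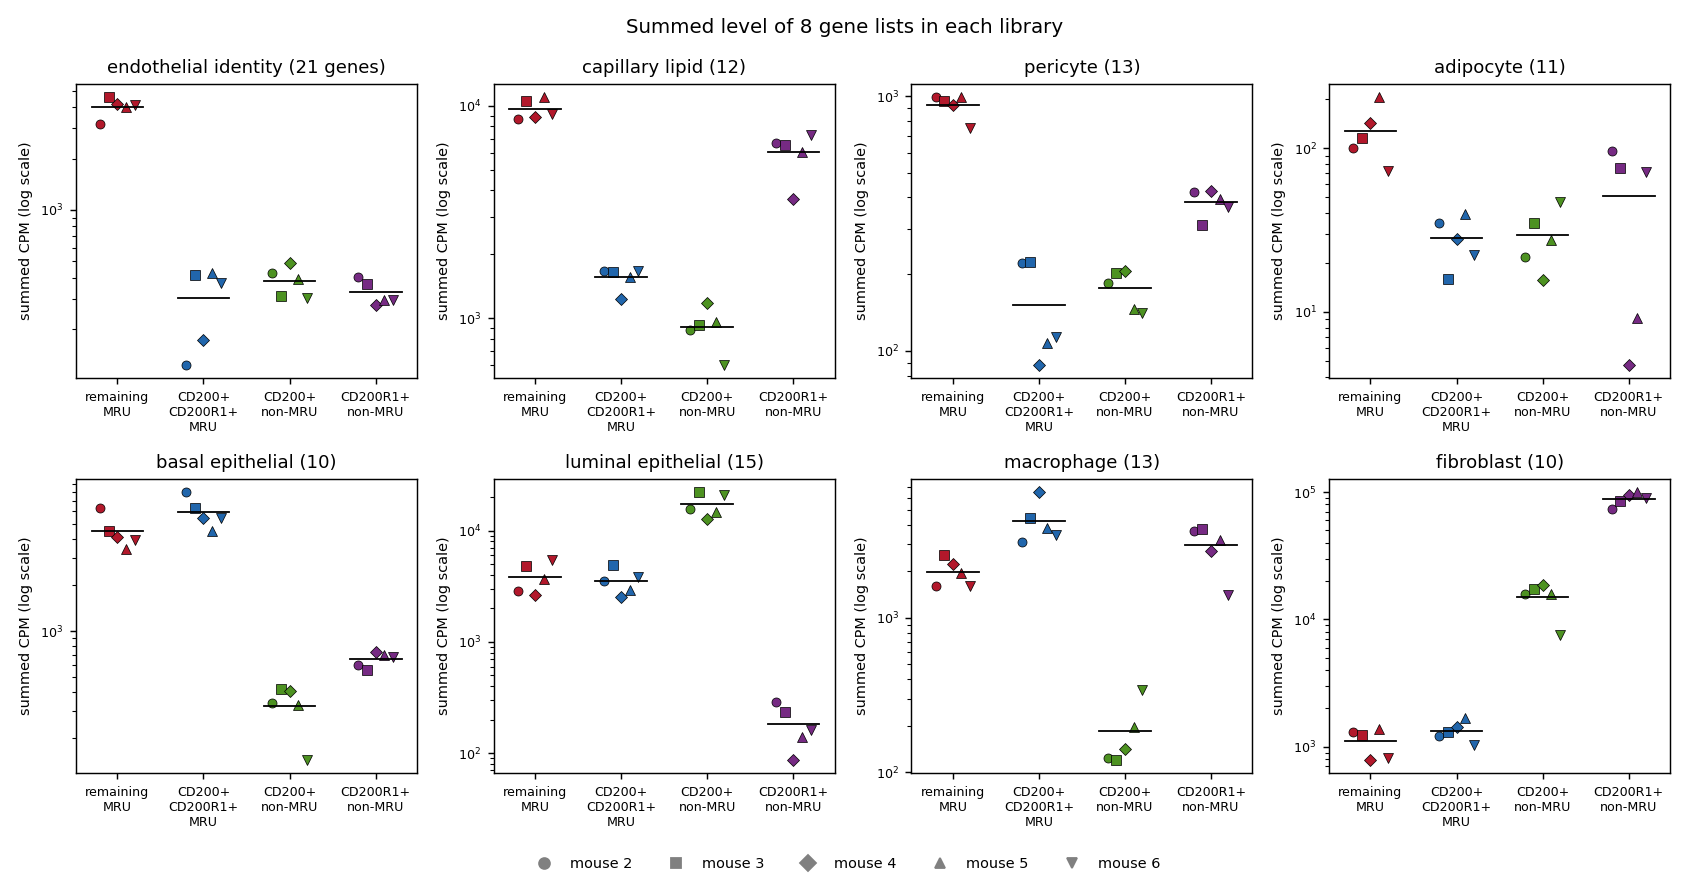
Summed level of 8 gene lists in each library, in CPM on a log axis, with 1 symbol per mouse and a line at the mean of each population (n = 5). Endothelial and pericyte sums are highest in remaining MRU at the left of each panel, basal sums overlap between the MRU populations, and the fibroblast sum is highest in CD200R1+ non-MRU.

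Against the mean of the 3 other populations, 3145 genes were higher in remaining MRU, which was 18.2% of those tested, and 2125 were lower, which was 12.3%. Library size alone as the scaling gave 3940 higher and 1555 lower, so higher genes made up 71.7% of calls instead of 59.7%. That scaling moved the median log2 difference of all genes to 0.128, against 0.027 with TMM. Against CD200+CD200R1+ MRU, 1290 genes were higher (7.48%) and 429 lower (2.49%), and DESeq2 gave 1509 and 811, with 65.0% of calls higher instead of 75.0%. Against CD200+ non-MRU, 4371 were higher (25.4%) and 3710 lower (21.5%).

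Against CD200R1+ non-MRU, 4102 were higher (23.8%) and 3842 lower (22.3%), and library size alone gave 7067 and 2326, with 75.2% of calls higher instead of 51.6%. The median log2 difference of all genes in that comparison was then 0.433, against 0.051 with TMM. All differences are thus relative to the TMM scaling. Genes that passed against each of the 3 populations numbered 488 higher (2.83%) and 47 lower (0.273%). The 4 comparisons share the remaining MRU libraries, so their counts are not separate evidence.

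In 464 genes, or 2.69% of those tested, the lowest remaining MRU library lay above the highest of the 15 others. These genes were chosen by that gap, which is given here as a description without a test. The gap was measured as the lowest remaining MRU level + 1 over the highest other level + 1. Its median over the 464 genes was 1.48, it reached 2 in 140 genes and 5 in 47 genes, and 427 of the 464 were protein coding. The highest of the other libraries was CD200+CD200R1+ MRU for 225 genes, CD200+ non-MRU for 118 and CD200R1+ non-MRU for 121. Just inside the rule lay Cttnbp2nl, with 53.995 against 53.907 CPM, and Nebl, with 62.1 against 61.9 CPM. Just outside lay Sugt1, at 76.499 against 76.511 CPM, and Elovl5, at 130.1 against 130.7 CPM.

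The 12 named genes with the widest gaps were headed by Rbp7 and Flt1. Adgrl4 (ENSMUSG00000039167, chromosome 3, 151437887 to 151545086, plus strand, GRCm38) stood at 197, 203, 238, 217 and 185 CPM in remaining MRU. The others ran from 0.504 over a median of 2.44 to 12.03 CPM. The highest of these was CD200+CD200R1+ MRU of mouse 3, and the gap was 14.3. Sox17 (ENSMUSG00000025902, chromosome 1, 4490931 to 4497354, minus strand), a transcription factor of arterial endothelium, stood at 36.8, 39.6, 61.7, 47.2 and 42.1 CPM in remaining MRU. The other 15 libraries held 0 to 1.84 CPM with a median of 0.28.

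Genes for a pair of receptor tyrosine phosphatases that lie next to each other on chromosome 10 were both among the 12. Ptprb (ENSMUSG00000020154, 116275523 to 116389535, plus strand), the phosphatase that acts on the angiopoietin receptor in endothelium, stood at 192, 283, 280.2, 252 and 227 CPM in remaining MRU. The others held 0.466 to 13.96 CPM. Ptprr (ENSMUSG00000020151, 116018213 to 116274932, plus strand), its upstream neighbour, stood at 84.7, 93.8, 148, 133 and 77.6 CPM in remaining MRU, against 0.105 to 4.92 CPM in the others. Neither overlapped any other library. Both lie on the same strand, and reads that ran on from Ptprr into Ptprb cannot be told apart here.

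Mecom, Gpihbp1 and Esam joined a transcription factor, a lipid-handling gene and a junction gene to the list. Mecom (ENSMUSG00000027684, chromosome 3, 29951296 to 30548008, minus strand), a zinc finger factor also known from blood stem cells, stood at 38.2, 47.1, 48.8, 43.1 and 42.02 CPM in remaining MRU, against 0.14 to 2.81 CPM in the others. Gpihbp1 (ENSMUSG00000022579, chromosome 15, 75596628 to 75599481, plus strand), which carries lipoprotein lipase across the capillary wall, stood at 304, 374, 272, 334 and 244 CPM in remaining MRU. The other libraries held 0 to 23.02 CPM with a median of 0.982, and their highest values were those of CD200+CD200R1+ MRU. Esam (ENSMUSG00000001946, chromosome 9, 37528078 to 37538319, plus strand), an endothelial adhesion molecule of tight junctions, stood at 242, 319, 294, 300.4 and 259 CPM in remaining MRU, against 0.102 to 23.7 CPM in the others. The lowest remaining MRU library lay far above the highest other one in each of the 3 genes.

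H2-M11, C1qtnf9 and Tmem255b had few counts outside remaining MRU. H2-M11 (ENSMUSG00000037537, chromosome 17, 36547075 to 36549250, plus strand), a class Ib gene of the major histocompatibility complex, stood at 15.98, 40.8, 29.9, 17.7 and 16.4 CPM in remaining MRU. The other 15 libraries together held 5 counts in CD200+CD200R1+ MRU, 2 in CD200+ non-MRU and 2 more in CD200R1+ non-MRU. Its family has close copies, so the split of reads between them is uncertain. C1qtnf9 (ENSMUSG00000071347, chromosome 14, 60768134 to 60780869, plus strand), a secreted relative of adiponectin, stood at 36.9, 41.1, 37.5, 42.2 and 27.7 CPM in remaining MRU, against 0 to 1.89 CPM in the others, with 2 counts over the 5 CD200R1+ non-MRU libraries. Tmem255b (ENSMUSG00000038457, chromosome 8, 13435189 to 13468473, plus strand), a membrane protein of little known function, stood at 24.9, 33.1, 29.9, 29.9 and 28.9 CPM in remaining MRU, against 0 to 2.18 CPM in the others. It had no count in CD200R1+ non-MRU, where 3 counts over the 5 libraries would have been 0.061 CPM. In each of the 12 genes the highest of the other libraries was at 23.7 CPM or less.

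Of the 464 genes, 69 stood on the 12 vascular lists, which hold 152 genes, and 75 on any of the 25 lists, which hold 279 genes. The lists were written with earlier results of these data known, so this overlap is no independent evidence. Some genes, such as Flt1, Flt4, Eng and Vwf, stand on several lists, so the counts given below by list are not separate results. Most of the 464 genes were on no list.

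**Figure D3:**
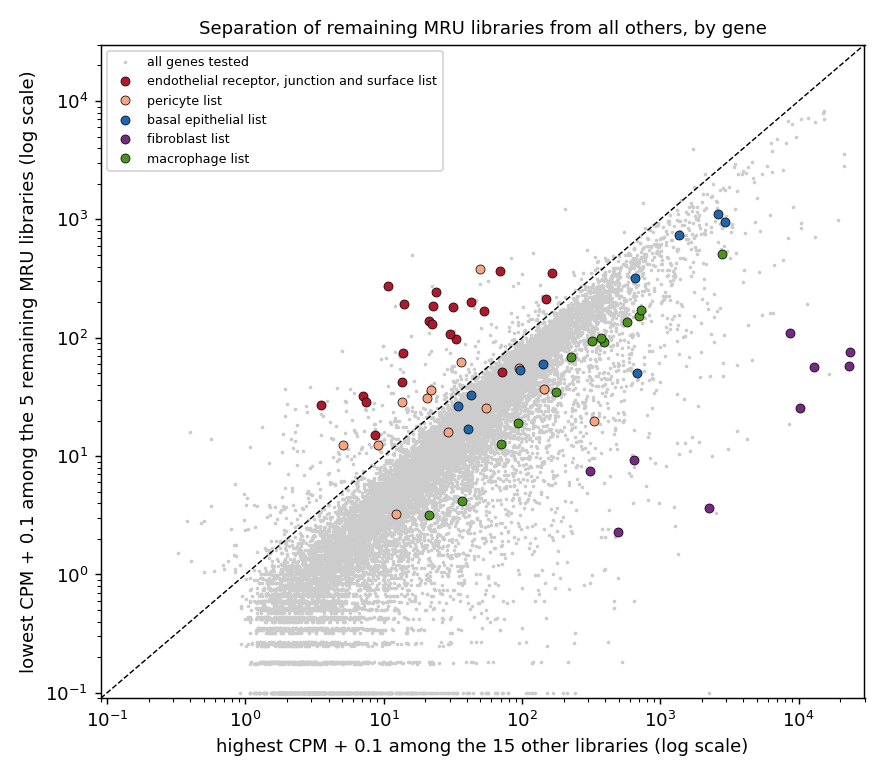
Lowest level among the 5 remaining MRU libraries against the highest among the 15 other libraries, both in CPM + 0.1 on log axes, with 1 point per tested gene and 5 gene lists in colour. Points above the dashed line are genes in which all remaining MRU libraries lie above all others. Of the 21 endothelial genes, 20 are above it, where 2.69% of tested genes are, and the fibroblast genes lie far below.

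Endothelial receptors, junction proteins and surface genes rose together. All 21 were higher than the mean of the other populations, where 18.2% of tested genes were, with a median log2 difference of 4.24 against 0.027 over all genes. Within the MRU gate, that is against CD200+CD200R1+ MRU, all 21 were higher too, where 7.48% of tested genes were, with a median of 3.80 against -0.014. Robo4, a guidance receptor of endothelium, stood at 26.9, 46.5, 36.2, 30.6 and 35.9 CPM in remaining MRU, against 0 to 3.45 CPM in the others with a median of 0.973. It differed from CD200+CD200R1+ MRU by 3.88 on the log2 scale (SE 0.41, adjusted p = 6.88e-06). Icam2, an adhesion molecule for leukocytes, stood at 186, 254, 250.3, 234 and 240.4 CPM in remaining MRU, against 3.66 to 22.6 CPM in the others, and differed by 4.17 from CD200+CD200R1+ MRU (log2, SE 0.38, adjusted p = 1.24e-06). Neither gene's libraries overlapped the others.

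Cdh5, the junction protein VE-cadherin, stood at 130.3, 175, 165, 166 and 172 CPM in remaining MRU, against 2.17, 17.6, 6.19, 22.3 and 13.3 CPM in CD200+CD200R1+ MRU of the same mice (log2 difference 3.80, SE 0.58, adjusted p = 0.000247). Kdr, the main signalling receptor for VEGF, stood at 119, 132, 108, 113 and 109.5 CPM in remaining MRU, against 1.20, 12.9, 6.42, 16.7 and 14.6 CPM in CD200+CD200R1+ MRU (log2 difference 3.51, SE 0.52, adjusted p = 0.000171). In CD200+CD200R1+ MRU both genes were lowest in mouse 2 and highest in mouse 5. Both were named after their values were seen, so their p-values are a description.

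Tek, the angiopoietin receptor, was the 1 gene of the 21 with overlap. It stood at 51.2 to 95.4 CPM in remaining MRU, against 1.95 to 72.2 CPM over the others, and its means were 76.2 CPM in remaining MRU, 4.90 in CD200+CD200R1+ MRU, 55.1 in CD200+ non-MRU and 32.95 CPM in CD200R1+ non-MRU. It passed within the MRU gate (log2 difference 4.10, adjusted p = 7.9e-06). The endothelial count of 21 was the same under all 26 alternatives against the mean of the other populations, and ran from 19 to 21 within the MRU gate. Against CD200+ non-MRU 20 of the 21 were higher, where 25.4% of tested genes were, and 1 did not pass.

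Among 19 transcription factors of endothelium, 14 were higher than the mean of the others and none lower, with a median log2 difference of 2.42. Within the MRU gate 12 were higher and none lower, with a median of 1.52. Of all tested genes, 18.2% were higher than the mean and 7.48% higher within the MRU gate. Against CD200+ non-MRU 13 factors were higher and 3 lower, where 25.4% and 21.5% of tested genes were. Against CD200R1+ non-MRU 17 were higher and 1 lower, where 23.8% and 22.3% of tested genes were. Sox7, a partner of Sox17, stood at 75.9, 101, 77.1, 93.6 and 79.9 CPM in remaining MRU, against 0.203 to 11.9 CPM in the others, and passed within the MRU gate (log2 difference 3.88, SE 0.57, adjusted p = 0.000181). Epas1, the hypoxia factor HIF-2 alpha, was also present in CD200+CD200R1+ MRU. It stood at 297, 311, 302, 316 and 278 CPM in remaining MRU, against 84.1 to 136 CPM in CD200+CD200R1+ MRU and 6.04 to 136 CPM over all others. The groups did not overlap, and the log2 difference within the MRU gate was 1.52 (SE 0.19, adjusted p = 3.25e-05).

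Meox2, a homeobox factor of vessels, had 24.7, 26.1, 37.1, 32.3 and 27.7 CPM in remaining MRU and 1.46 to 14.5 CPM in the others. It differed by 3.41 within the MRU gate (SE 0.31, adjusted p = 1.24e-06). Its libraries lay above all others.

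Most capillary lipid genes rose. Of 12 genes, 9 were higher and 1 lower than the mean of the others, where 18.2% and 12.3% of tested genes were, with a median of 2.34. Within the MRU gate 7 were higher, where 7.48% of tested genes were, and none lower, with a median of 1.22. Cd36, a fatty acid receptor, stood at 1237, 1409, 1339, 1489 and 1292 CPM in remaining MRU, against 25.5 to 203 CPM in the others with a median of 99.95. Its log2 difference within the MRU gate was 3.52 (SE 0.25, adjusted p = 9.61e-08), and no library overlapped. Lpl, lipoprotein lipase, was the gene lower than the mean, with 65.3 to 157 CPM in remaining MRU and means of 76.0 in CD200+CD200R1+ MRU, 328 in CD200+ non-MRU and 4081 CPM in CD200R1+ non-MRU.

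Pparg, the nuclear receptor of fat and capillaries, stood at 49.7 to 82.1 CPM in remaining MRU with means of 4.99 in CD200+CD200R1+ MRU, 7.42 in CD200+ non-MRU and 58.4 CPM in CD200R1+ non-MRU. Its libraries overlapped those of CD200R1+ non-MRU. Fabp4, Cd36 and Pparg are genes of adipocytes too. The 11 adipocyte genes summed to 72.2 to 205 CPM in remaining MRU, against 15.8 to 39.7 CPM in CD200+CD200R1+ MRU, 15.7 to 47.1 in CD200+ non-MRU and 4.75 to 95.9 in CD200R1+ non-MRU. Their part in the lipid result was not tested.

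The adipocyte list itself was higher in remaining MRU at low levels. All 10 tested genes of 11 were higher than the mean of the others, where 18.2% of tested genes were, with a median log2 difference of 2.66. The median was 2.62 with Cfd and Cidec, which had no count in CD200+ non-MRU, at their bound. The count ran from 7 to 10 over the alternatives. The filter keeps a gene with enough counts in 1 population, so members near the floor can be tested through remaining MRU alone. The count is thus a description. Within the MRU gate 4 were higher, where 7.48% of tested genes were, and none lower. The 4 became 2 without remaining MRU of mouse 4 or of mouse 5. Adipoq, which encodes adiponectin, stood at 6.20, 3.84, 4.21, 5.47 and 2.25 CPM in remaining MRU, against 0 to 0.898 CPM in the others. Plin1, the coat protein of fat droplets, averaged 0.934 CPM in remaining MRU and 0.49 CPM in CD200R1+ non-MRU, with overlap. Cfd, the serine protease adipsin, stood at 19.6, 11.8, 38.8, 37.2 and 17.96 CPM in remaining MRU, against 1.12 to 6.83 CPM in CD200+CD200R1+ MRU, and passed (log2 difference 2.81, SE 0.53, adjusted p = 0.00348).

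Arterial and venous genes both rose. The arterial list had 13 of 13 genes higher than the mean of the others, with a median of 3.47, and 9 higher within the MRU gate. The venous list had 9 of 9 and 7 of 9. Of all tested genes, 18.2% were higher than the mean and 7.48% higher within the MRU gate. Gja4, a connexin of arteries, stood at 65.8, 91.0, 73.3, 80.7 and 89.9 CPM in remaining MRU, against 0.202 to 9.54 CPM in the others (log2 difference within the MRU gate 4.34, SE 0.45, adjusted p = 5.3e-06). Sema3g, a semaphorin of arteries, stood at 18.2, 25.3, 28.8, 24.1 and 25.6 CPM in remaining MRU, and CD200R1+ non-MRU had the highest of the other values, at 12.2 CPM. Hey1, a Notch target, stood at 73.5, 71.4, 107.5, 76.0 and 56.2 CPM in remaining MRU against 3.43 to 30.96 CPM in the others. None of the 3 overlapped with another population. Fbln5, an elastic fibre protein, stood at 313, 369.6, 439.6, 349 and 355 CPM in remaining MRU, against 14.2 to 24.01 CPM in CD200+CD200R1+ MRU and up to 267 CPM in CD200R1+ non-MRU.

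Levels of venous genes differed widely between mice. Ackr1, the chemokine scavenger of venules, stood at 178, 569, 343, 489 and 513 CPM in remaining MRU of mice 2 to 6, against 0.302 to 44.7 CPM in the others. Selp, P-selectin, stood at 104, 339, 124, 204 and 167 CPM in remaining MRU, against 0 to 15.6 CPM in the others. Mouse 2 was lowest for both and mouse 3 highest for both. In CD200+CD200R1+ MRU mouse 3 was highest again, at 42.4 CPM of Ackr1 and 15.6 CPM of Selp, and mouse 2 and mouse 4 held at most 2.77 and 1.57 CPM. The log2 differences within the MRU gate were 5.16 (SE 0.77, adjusted p = 0.000205) for Ackr1 and 5.09 (SE 0.81, adjusted p = 0.000401) for Selp. Sele, E-selectin, stood at 71.6, 136, 114, 120 and 128 CPM in remaining MRU, against 0.203 to 12.7 CPM in the others.

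Lymphatic genes were higher in part. Of 8 tested genes, 6 were higher than the mean of the others, where 18.2% of tested genes were, and none lower. Within the MRU gate 2 were higher, where 7.48% of tested genes were, and 6 did not pass, with a median of 0.56. The list summed to 338, 350, 402, 323 and 432 CPM in remaining MRU of mice 2 to 6. In CD200+CD200R1+ MRU of the same mice it summed to 369, 417, 377, 398 and 523 CPM, which was not tested. Reln, a secreted glycoprotein of lymphatics, stood at 66.7, 64.2, 109, 77.3 and 83.4 CPM in remaining MRU and 77.2 to 135 CPM in CD200+CD200R1+ MRU (adjusted p = 0.392). Lyve1, a hyaluronan receptor that macrophages also carry, averaged 18.04 CPM in remaining MRU and 76.8 CPM in CD200+CD200R1+ MRU (adjusted p = 0.053). The 2 genes called were Flt4 and Foxc2, at 15.1 to 26.7 and 3.70 to 5.76 CPM in remaining MRU, with adjusted p of 0.0386 and 0.0316. Both calls were lost without mouse 3, 4 or 6 of remaining MRU or without mouse 3 or 4 of CD200+CD200R1+ MRU. That of Flt4 was also lost without remaining MRU of mouse 5 and with DESeq2, with adjusted p up to 0.132. That of Foxc2 was also lost without remaining MRU of mouse 2, without CD200+CD200R1+ MRU of mouse 2 or 5 and without the mouse block, with adjusted p up to 0.105. The count of lymphatic genes called higher within the MRU gate ran from 0 to 4 over the alternatives, and the count called lower from 0 to 1.

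Pericyte genes rose within the MRU gate as the endothelial ones did. Of 13 genes, 11 were higher and none lower than in CD200+CD200R1+ MRU, where 7.48% of tested genes were higher, with a median of 2.75. Against the mean of the others 10 were higher, where 18.2% of tested genes were, with a median of 2.10. The list summed to 748 to 991 CPM in remaining MRU, against 88.2 to 224 in CD200+CD200R1+ MRU, 141 to 206 in CD200+ non-MRU and 313 to 423 in CD200R1+ non-MRU. Notch3, the Notch receptor of mural cells, stood at 40.5, 28.7, 46.8, 38.1 and 31.2 CPM in remaining MRU, against 4.83 to 13.4 CPM in the others (log2 difference within the MRU gate 2.49, SE 0.24, adjusted p = 2.1e-06). Ndufa4l2, a mitochondrial protein of pericytes, stood at 60.5, 47.4, 36.01, 48.7 and 37.8 CPM in remaining MRU, against 2.19 to 22.04 CPM in the others. Neither gene's libraries overlapped the others. Cox4i2, a respiratory chain subunit that is known from pericytes, stood at 13.6, 15.6, 12.6, 17.8 and 12.3 CPM in remaining MRU, against 2.30 to 4.19 CPM in CD200+CD200R1+ MRU and up to 9.06 CPM in CD200R1+ non-MRU. Pdgfrb, the platelet growth factor receptor that pericytes share with fibroblasts, averaged 24.8 CPM in remaining MRU, 8.76 in CD200+CD200R1+ MRU, 12.8 in CD200+ non-MRU and 181 CPM in CD200R1+ non-MRU.

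Genes of the VEGF and angiopoietin pathways rose in part. Over the 16 genes, which include apelin and its receptor, 12 were higher and 1 lower than the mean of the others, or 2 lower without CD200+ non-MRU of mouse 2. Of all tested genes, 18.2% were higher and 12.3% lower. Flt1, Kdr, Flt4, Tek and Tie1 stand on the endothelial list too, so the counts of the 2 lists are not separate results. Within the MRU gate 10 were higher, where 7.48% of tested genes were, and none lower. The ligand Vegfc stood at 42.4, 37.6, 51.9, 53.3 and 38.2 CPM in remaining MRU, against 10.1 to 15.7 CPM in CD200+CD200R1+ MRU (log2 difference 1.86, SE 0.21, adjusted p = 1.28e-05), but CD200R1+ non-MRU reached 58.9 CPM. Pgf, placental growth factor, stood at 72.3, 84.5, 49.7, 74.9 and 58.2 CPM in remaining MRU and overlapped with CD200+CD200R1+ MRU, at 45.3 to 91.7 CPM (adjusted p = 0.766). Vegfa averaged 99.8 CPM in remaining MRU, 106 in CD200+CD200R1+ MRU, 75.0 in CD200+ non-MRU and 235 CPM in CD200R1+ non-MRU and did not pass against the mean (adjusted p = 0.11). Figf, which encodes VEGF-D, was the gene lower than the mean, at 0.578 to 3.04 CPM in remaining MRU and an average of 86.4 CPM in CD200R1+ non-MRU.

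The co-receptor Nrp1 stood at 254, 288, 285, 294 and 221 CPM in remaining MRU, against 41.97 to 67.8 CPM in CD200+CD200R1+ MRU. It passed within the MRU gate (log2 difference 2.25, SE 0.18, adjusted p = 4.28e-07) and not against CD200R1+ non-MRU (adjusted p = 0.464). The fold of Flt1 within the MRU gate was 46.4 (log2 SE 0.46), which is given without a test because the gene was chosen as a marker. Receptors and ligands of the list are drawn in the plot of list members within the MRU gate.

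Notch genes rose in part, and Hey1, Hey2, Dll4, Jag1, Jag2 and Notch3 stand on the arterial or the pericyte list too. Of 17 genes, 11 were higher and 1 lower than the mean of the others, where 18.2% and 12.3% of tested genes were. Within the MRU gate 8 were higher and 1 lower, where 7.48% and 2.49% of tested genes were. The lower gene was Notch2 in both. Notch1 stood at 52.6, 63.9, 67.9, 58.2 and 53.3 CPM in remaining MRU, against 9.27 to 30.9 CPM in the others (log2 difference within the MRU gate 1.88, SE 0.20, adjusted p = 6.48e-06). Dll1, a Notch ligand of basal cells, stood at 118, 66.5, 67.2, 68.7 and 75.3 CPM in remaining MRU, against 95.5 to 159 CPM in CD200+CD200R1+ MRU, and did not pass (adjusted p = 0.338). Notch2 averaged 13.1 CPM in remaining MRU and 22.7 CPM in CD200+CD200R1+ MRU (log2 difference -0.80, adjusted p = 0.0064).

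Genes of the bone morphogenetic protein (BMP) and TGF-beta pathway rose in part. Of 15 genes, 8 were higher and 1 lower than the mean of the others, where 18.2% and 12.3% of tested genes were, with a median of 0.49. Against CD200R1+ non-MRU 5 were higher and 5 lower, where 23.8% and 22.3% of tested genes were, with a median of 0.15. Within the MRU gate 7 were higher, where 7.48% of tested genes were, and none lower, with a median of 0.73. With DESeq2 or without CD200+ non-MRU of mouse 6, 1 gene was lower there. Id1, an early target of BMP signals, stood at 573, 710, 812, 817 and 549 CPM in remaining MRU, against 48.5 to 296 CPM in the others (log2 difference within the MRU gate 2.84, SE 0.21, adjusted p = 1.71e-07). Eng, the co-receptor endoglin, stood at 97.8, 180, 119, 134 and 142 CPM in remaining MRU, against 7.67 to 33.1 CPM in the others. Acvrl1, its partner receptor, stood at 38.2, 53.5, 47.8, 46.9 and 41.3 CPM in remaining MRU and overlapped with CD200R1+ non-MRU. Smad6, an inhibitor of the pathway, stood at 30.2, 33.9, 35.6, 36.98 and 25.98 CPM in remaining MRU, against 1.52 to 15.9 CPM in the others.

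Genes of clotting control and vessel tone were mostly higher than the mean of the others and within the MRU gate. Of 12 genes, 8 were higher and 2 lower than the mean of the others, where 18.2% and 12.3% of tested genes were. Within the MRU gate 9 were higher, where 7.48% of tested genes were, and none lower. Against CD200R1+ non-MRU 7 were higher and 4 lower, where 23.8% and 22.3% of tested genes were. The list summed to 1070 to 1410 CPM in remaining MRU and 1220 to 1720 CPM in CD200R1+ non-MRU, which was not tested. Nos3, endothelial nitric oxide synthase, stood at 16.1, 30.9, 25.4, 24.9 and 21.7 CPM in remaining MRU, against 0.314 to 7.07 CPM in the others (log2 difference within the MRU gate 2.76, SE 0.35, adjusted p = 3.67e-05). Vwf, the clotting factor stored in endothelium, stood at 41.8, 117, 65.5, 76.5 and 89.0 CPM in remaining MRU, against 0.203 to 13.6 CPM in the others. Ednrb, an endothelin receptor, stood at 299, 278, 351, 250 and 176 CPM in remaining MRU, against 65.2 to 132 CPM in CD200+CD200R1+ MRU, and no library overlapped. Its call within the MRU gate (adjusted p = 0.0398) was lost in 14 of 26 alternatives, among them library size alone, the fit without the block and the fit without any 1 remaining MRU library. Ptgis and Plat were the genes lower than the mean, and 1 of them was no longer called without remaining MRU of mouse 2 or of mouse 5.

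Basement membrane genes moved in both directions. Of 12, 5 were higher and 4 lower than the mean of the others, where 18.2% and 12.3% of tested genes were. Against CD200R1+ non-MRU 1 was higher and 10 were lower, where 22.3% of tested genes were lower, with a median of -1.91. Within the MRU gate 5 were higher, where 7.48% of tested genes were, and none lower, with a median of 0.04, or 1 lower without CD200+ non-MRU of mouse 6. Sparcl1, a secreted matrix protein of vessels, stood at 769, 778, 955, 920.3 and 692 CPM in remaining MRU, against 26.1 to 96.0 CPM in CD200+CD200R1+ MRU (log2 difference 3.86, SE 0.34, adjusted p = 8.66e-07), and up to 1321 CPM in CD200R1+ non-MRU. Col4a1, a collagen of basement membrane, stood at 868, 758, 1063, 765 and 893 CPM in remaining MRU and 902 to 1196 CPM in CD200+CD200R1+ MRU (adjusted p = 0.347).

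**Figure D4:**
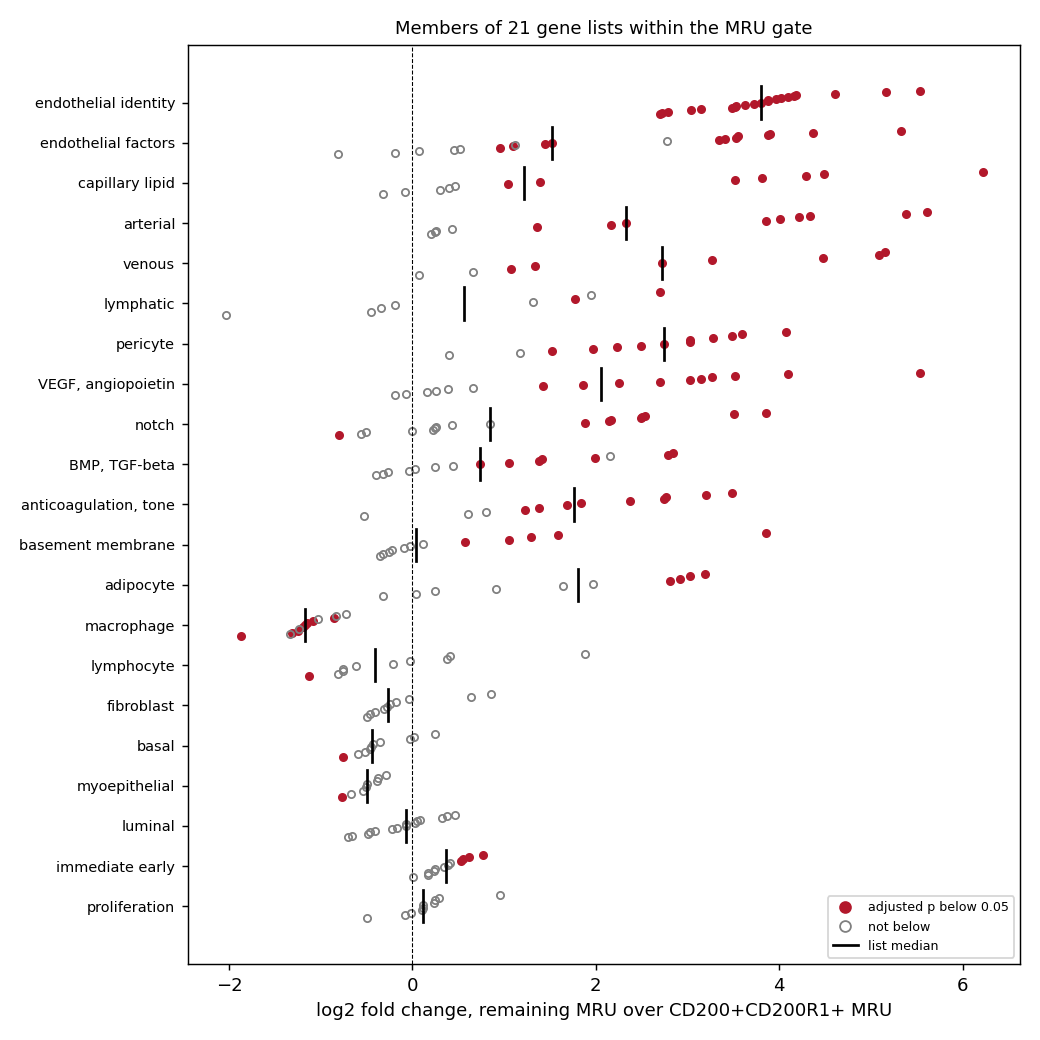
Log2 fold change of remaining MRU over CD200+CD200R1+ MRU for each tested member of 21 gene lists, with filled points for an adjusted p below 0.05 and a bar at the list median. All 21 endothelial genes are filled at positive values and 8 of 13 macrophage genes are filled at negative ones, while no luminal, fibroblast or proliferation gene is filled.

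Of 11 imprinted growth genes, 2 had every remaining MRU library above all others, where 2.69% of tested genes did. Igf2, the fetal insulin-like growth factor, stood at 49.3, 64.6, 49.8, 37.4 and 40.4 CPM in remaining MRU, against 0.219 to 4.47 CPM in the others with a median of 2.04. Within the MRU gate it was 69.0-fold higher (log2 SE 0.65). Dlk1, a membrane protein of fetal cells and preadipocytes, stood at 35.8, 47.5, 20.2, 26.3 and 19.6 CPM in remaining MRU, against 0.377 to 9.28 CPM in the others, and was 10.9-fold higher (log2 SE 0.63). Neither overlapped with another library, and both folds are given without a test because the genes are singled out by that gap. H19, which lies beside Igf2 on chromosome 7, stood at 5.57, 1.36, 0.908, 1.48 and 1.17 CPM in remaining MRU and 1.55 to 5.01 CPM in CD200+CD200R1+ MRU (adjusted p = 0.449), and averaged 111 CPM in CD200R1+ non-MRU. Against the mean of the others 2 of the 11 were higher and 4 lower, where 18.2% and 12.3% of tested genes were, with a median of -0.37. The count of higher genes was thus near the share of all tested genes. Within the MRU gate 4 were higher, where 7.48% of tested genes were, and none lower, with a median of 0.95.

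Macrophage genes were in part higher than the mean of the others and in part lower within the MRU gate. The 13 genes summed to 1600 to 2540 CPM in remaining MRU, against 3120 to 6530 CPM in CD200+CD200R1+ MRU, 120 to 339 in CD200+ non-MRU and 1400 to 3770 in CD200R1+ non-MRU. Against the mean of the others 8 were higher, where 18.2% of tested genes were, and none lower, with a median of 1.01. All 13 were higher than in CD200+ non-MRU, where 25.4% of tested genes were, with a median of 4.56. Against CD200R1+ non-MRU 1 was higher and 2 were lower, where 23.8% and 22.3% of tested genes were. There were 0 higher and 8 lower within the MRU gate, where 2.49% of tested genes were lower, with a median of -1.17. C1qa, a chain of complement C1q, stood at 162, 268, 212, 153 and 180 CPM in remaining MRU, against 332 to 700 CPM in CD200+CD200R1+ MRU (log2 difference -1.25, SE 0.28, adjusted p = 0.00719). Its libraries did not overlap. Mrc1, a mannose receptor, stood at 105, 166, 129.8, 92.2 and 111 CPM in remaining MRU, against 208 to 395 CPM in CD200+CD200R1+ MRU, and was called at an adjusted p of 0.0328. That call was lost without mouse 2, 4 or 5 of remaining MRU and without mouse 3, 4, 5 or 6 of CD200+CD200R1+ MRU. The count of 8 fell to 2 without remaining MRU of mouse 4 or 5 or CD200+CD200R1+ MRU of mouse 6, and to 3 without remaining MRU of mouse 2 or CD200+CD200R1+ MRU of mouse 3 or 4. It was 5 without remaining MRU of mouse 6 or CD200+CD200R1+ MRU of mouse 5, and ran from 2 to 12 over all 26 alternatives. The part of macrophage RNA in the other results was not tested.

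Fibroblast genes were lower than the mean of the others in 10 of 10, where 12.3% of tested genes were, with a median of -3.37. Within the MRU gate 0 of 10 passed in either direction. With no filter on low counts, 2 were called higher and 3 lower there. Dcn, the proteoglycan decorin, stood at 664, 530, 416, 651 and 427 CPM in remaining MRU and 597 to 738 CPM in CD200+CD200R1+ MRU (adjusted p = 0.381). The non-MRU populations held more, with a mean of 8037 CPM in CD200+ non-MRU and 29530 CPM in CD200R1+ non-MRU. Lymphocyte genes numbered 0 higher and 3 lower of 10 against the mean, where 18.2% and 12.3% of tested genes were. The list summed to 138 to 242 CPM in remaining MRU and 1090 to 2360 CPM in CD200+ non-MRU. The 3 became 5 when CD200R1+ non-MRU of mouse 4 were left out, 6 when those of mouse 6 were, and 9 with no filter on low counts. The T cell receptor chain gene Cd3e stood at 7.93 to 26.1 CPM in remaining MRU and 7.62 to 21.6 CPM in CD200+CD200R1+ MRU (adjusted p = 0.306). Of 6 Schwann cell genes, 3 were higher and 1 lower than the mean, where 18.2% and 12.3% of tested genes were, and none passed within the MRU gate. They summed to 36 to 94.9 CPM in remaining MRU, against 35.9 to 69.8 CPM in CD200+CD200R1+ MRU. The part of fibroblast, lymphocyte and Schwann cell RNA in the other results was not tested.

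Genes in which every remaining MRU library lay below all 15 others numbered 22, or 0.128% of those tested, and 20 were protein coding. They were chosen by that gap and are described without a test. The gaps were narrow, with a median of 1.04 and a largest value of 1.37, against 1.48 and 29.8 for the genes above. The lowest of the other libraries was CD200+CD200R1+ MRU in 17 of the 22, CD200+ non-MRU in 4 and CD200R1+ non-MRU in 1. None of the 22 stood on any of the 25 lists. Just inside the rule lay Alkbh1, at up to 49.95 CPM in remaining MRU against 50.3 CPM in the lowest other library, and just outside lay Add3, at 62.4 against 62.1 CPM.

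Dnm1 (ENSMUSG00000026825, chromosome 2, 32308471 to 32353338, minus strand), the vesicle-cutting enzyme dynamin, had the widest of these gaps. It stood at 5.57, 5.13, 4.63, 2.96 and 3.09 CPM in remaining MRU, against a lowest of 8.02, a median of 31.6 and a highest of 197 CPM in the others. CD200R1+ non-MRU were the highest population. Hk2, a hexokinase of glycolysis, stood at 50.6, 48.9, 35.8, 40.7 and 37.4 CPM in remaining MRU, against 55.2 to 939 CPM in the others with a median of 129. Colec12, a scavenger receptor, stood at 9.86, 11.4, 13.1, 12.8 and 9.61 CPM in remaining MRU, against 15.3 to 233 CPM in the others with a median of 33.8. Like Dnm1, both were highest in CD200R1+ non-MRU.

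The other 5 named genes had no wider gap than 1.16. Blvrb, a biliverdin reductase, stood at 54.9, 75.4, 62.2, 69.4 and 67.5 CPM in remaining MRU, against 87.8 to 137 CPM in the others. Max, the partner of Myc, stood at 16.7, 18.8, 16.9, 15.4 and 17.6 CPM in remaining MRU, against 21.4 to 34.1 CPM in the others. Prkcb, a protein kinase C, stood at 14.1, 14.3, 19.2, 16.8 and 14.2 CPM in remaining MRU, against 21.6 to 97.6 CPM in the others. None of these libraries overlapped, by the rule that chose them. The RNA-binding protein gene Celf2 stood at 123, 130.4, 127, 109 and 108 CPM in remaining MRU, against 136 to 621 CPM in the others, and Fnip1, a folliculin partner, at 115, 125, 123, 116 and 123 CPM in remaining MRU, against 130 to 298 CPM in the others. The highest remaining MRU library of both came within a few CPM of the lowest other one.

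**Figure D5:**
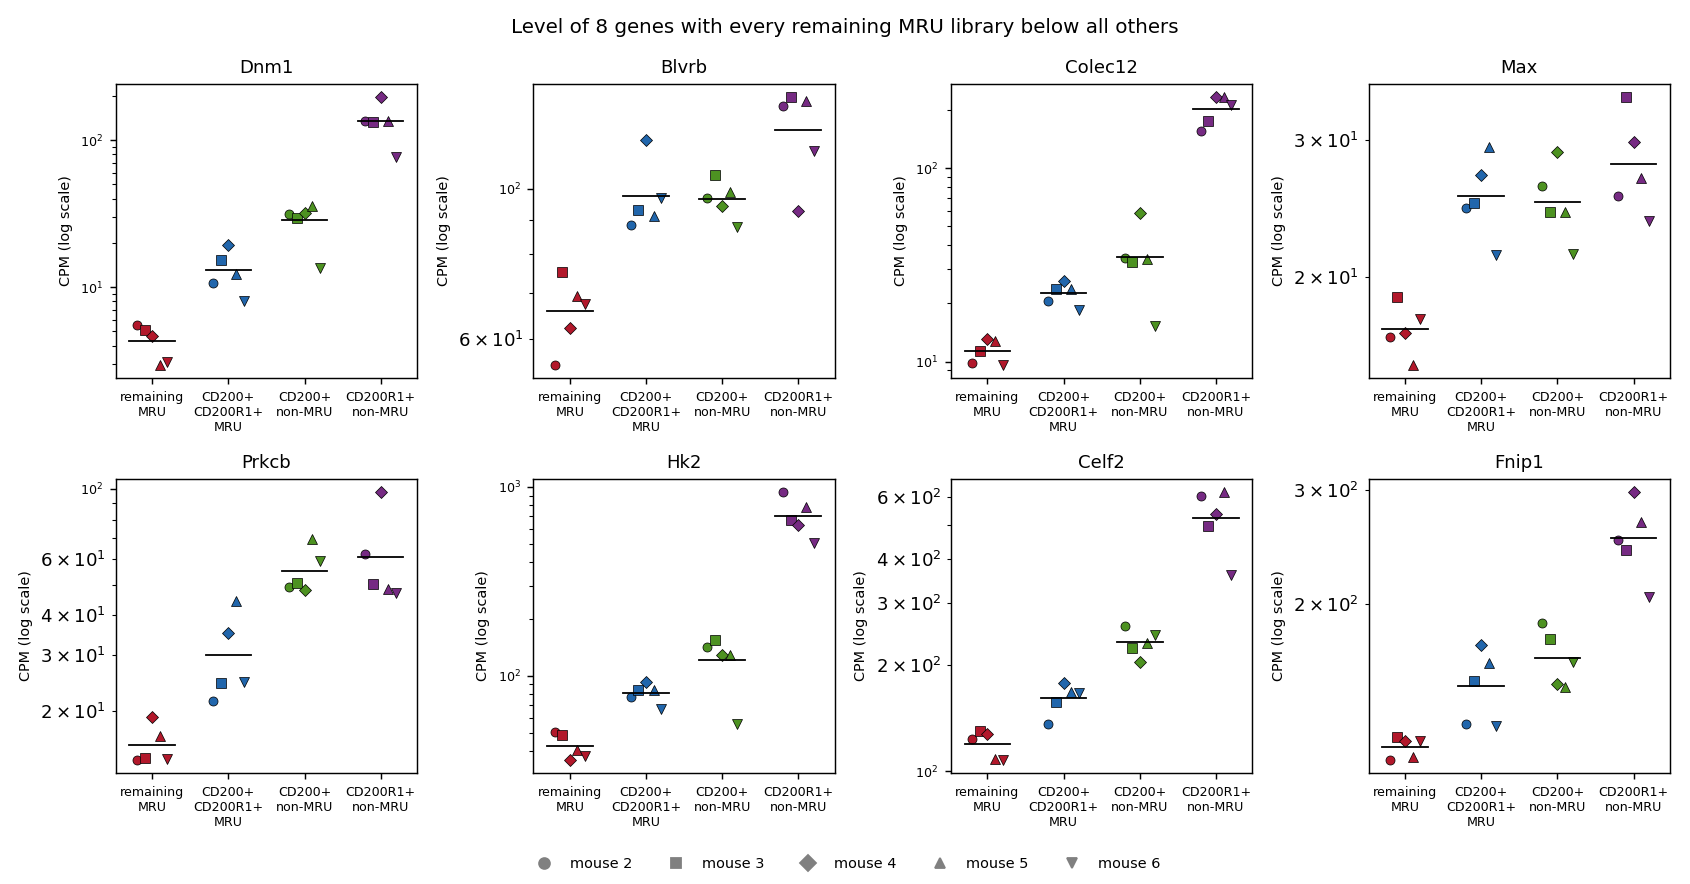
Level of the 8 named genes in which every remaining MRU library lies below all 15 others, in CPM on a log axis, with 1 symbol per mouse and a line at the mean of each population (n = 5). Remaining MRU, at the left of each panel, are lowest in each gene, by a gap ratio of 1.37 for Dnm1 and by less for the other 7.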

How the data were processed

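Per the submitters' processing notes, the authors' pipeline named cutadapt, STAR 2.4.2a, HTSeq, DESeq2 and build GRCm38. The deposited table held raw counts per gene for 46603 genes in 20 libraries, per the file headers, beside the authors' own normalized columns, which were not used here. The strand setting of the counting is not given in the sources used here. Coordinates are from the GENCODE annotation of GRCm38.

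Counts were scaled by TMM, and genes of low count were removed with filterByExpr. The test was the quasi-likelihood test of edgeR 4.0.16 under R 4.3.3, fitted on all 20 libraries with population and mouse as terms, and p-values were adjusted by Benjamini-Hochberg over 17236 genes. The mean of the 3 other populations and each of them were contrasts of that fit. The mouse block came from the labels, which name 5 individual mice. Deviations of libraries from their population means correlated at a median of 0.0771 for 30 same-mouse pairs, with a range of 0.00138 to 0.264, and at -0.0273 for 120 other pairs. No 2 replicate libraries matched within sampling noise, with a chi-square per gene of at least 8.5 over 40 pairs. The procedure was tested on simulated data.

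Alternatives were DESeq2 size factors, library size alone, no filter on low counts, DESeq2 1.42.0, limma 3.58.1 voom, no replicate block, leaving out each library in turn and, for genes without overlap, a minimum of 1 CPM in the higher libraries. Named genes were the 4 markers, the sort markers, the 12 widest gaps above and 8 below among genes averaging at least 10 CPM on the higher side, without predicted and mitochondrial genes, and of each list up to 4 members of smallest p against the mean of the others, with defining members near 0. The members and lists were chosen with earlier results of these data known, and Tek, Lpl, Figf, Notch2, Ptgis, Plat, Lyve1, Pdgfrb, Pparg, Vegfa, Plin1, Cdh5, Kdr and the genes in the closing paragraphs were named after their values were seen. Floors of 3 counts cover counting error only, while standard errors and p-values include the spread between mice.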

Additional observations from a re-analysis of the deposited data

Results flagged for a closer look

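In 12 of 211 sets of 5 libraries, the highest or lowest library stood apart from the others by Dixon's 95% criterion, whose critical value for 5 libraries is 0.71, and chance alone flags about 1 in 20 sets. In remaining MRU, mouse 2 was high for Dll1, at 118 CPM with the next at 75.3, and for H19, at 5.57 CPM with the next at 1.48. The same library was low for the endothelin-converting enzyme gene Ece1, at 97.1 CPM with the next at 131, and for Trp63, at 59.7 CPM with the next at 75.3. The pericyte sum was low in remaining MRU of mouse 6, at 748 CPM with the next at 925. The Notch sum was high in remaining MRU of mouse 4, at 1030 CPM with the next at 736.

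In CD200+CD200R1+ MRU, the capillary lipid sum was low in mouse 4, at 1230 CPM with the next at 1570. The CD200+ non-MRU library of mouse 6 was low for 4 sums, which were lymphatic genes at 34.7 CPM with the next at 78, clotting and vessel tone genes at 305 with the next at 671, fibroblast genes at 7480 with the next at 15800, and imprinted genes at 115 with the next at 264. The immediate early sum was high in CD200R1+ non-MRU of mouse 5, at 22500 CPM with the next at 15900.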

How the results depend on the processing

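Of 175 results for named genes, 157 kept their direction and side of the threshold under all 26 alternatives, 16 lost a call under at least 1, 1 gained one (Itga6 within the MRU gate) and 1 turned. The turned one was Cd200r1 against the mean of the other populations, which was not called. Its log2 difference of -0.49 was 0.0152 without remaining MRU of mouse 2, and ran from -1.08 to 0.0152 over the libraries left out. Of 100 list counts, 25 moved by more than 1.5 times under at least 1 alternative.

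Library size alone gave 7067 genes higher and 2326 lower than in CD200R1+ non-MRU, against 4102 and 3842. Genes lower than in CD200+CD200R1+ MRU numbered 429, against 811 with DESeq2, 701 with voom, 280 without the replicate block and 217 to 562 with 1 library left out, lowest without remaining MRU of mouse 4 and highest without CD200+ non-MRU of mouse 6. Genes lower than each of the 3 populations numbered 47, against 91 with DESeq2, 30 without the block and 24 to 58 with 1 library left out, by the same 2 libraries. Genes with every remaining MRU library below all others numbered 22, and 21 to 47 with 1 library left out, highest without CD200+CD200R1+ MRU of mouse 6. The cause of these shifts was not tested.

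Among the counts that moved less, genes higher than in CD200+CD200R1+ MRU ran from 984 to 1399 with 1 library left out and genes above all other libraries from 479 to 542. Leaving out the replicate block ended the calls of Foxc2, Ednrb, Nid1 and Cd163 within the MRU gate and of Aurkb against the mean of the others, and of no other named gene. Before TMM scaling, 3 counts were 0.276 CPM in the shallowest library. Over the 5 libraries of a population, 3 counts were 0.0444 to 0.061 CPM after scaling.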

Other observations

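Immediate early genes, the first to respond to many stimuli, were high in all 4 populations. The 12 genes summed to 20700 to 22900 CPM in remaining MRU, against 15300 to 21200 CPM in CD200+CD200R1+ MRU, 15600 to 17800 in CD200+ non-MRU and 14900 to 22500 in CD200R1+ non-MRU. Against the mean of the others 4 of 12 were higher, where 18.2% of tested genes were, and none lower. That count was 2 without remaining MRU of mouse 3, 8 without CD200R1+ non-MRU of mouse 5, 7 with no filter on low counts and 9 with library size alone. Against CD200+CD200R1+ MRU 4 of 12 were higher, where 7.48% of tested genes were, and none lower. The sum was above that of CD200+CD200R1+ MRU in each of the 5 mice, and was not tested. Ier3, an early response gene, stood at 1602, 1513, 1472, 1503 and 1518 CPM in remaining MRU, against 316 to 1411 CPM in the others, and no library overlapped. Fos, an AP-1 subunit, stood at 6786 to 8232 CPM in remaining MRU and 2947 to 8390 CPM in the others. The part of this response in the other results was not tested.

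Proliferation genes varied between mice more than between the MRU populations. The 10 genes summed to 122 to 222 CPM in remaining MRU, against 76.3 to 310 CPM in CD200+CD200R1+ MRU, 150 to 383 in CD200+ non-MRU and 91.2 to 316 in CD200R1+ non-MRU. None passed within the MRU gate in either direction. Mki67, a marker of cycling cells, stood at 8.43, 11.6, 33.9, 25.7 and 24.1 CPM in remaining MRU of mice 2 to 6, and at 6.59, 8.79, 42.2, 21.4 and 22.1 CPM in CD200+CD200R1+ MRU of the same mice. Mice 2 and 3 were lowest and mouse 4 highest in both.

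Haemoglobin transcripts differed widely between remaining MRU libraries. Hba-a1, an alpha chain, stood at 82.1, 43.6, 12.8, 27.7 and 0.0835 CPM in mice 2 to 6, and Hbb-bs, a beta chain, at 96.9, 54.1, 7.27, 18.6 and 0.167 CPM. In CD200+CD200R1+ MRU mouse 4 alone was high, at 44.5 and 46.6 CPM, and the other 4 held at most 1.62 and 0.0748 CPM. These chains have near-identical copies, so the split of reads between them is uncertain, and the part of red cell RNA in other results was not tested.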
